A study of Rattus norvegicus with 111 samples.

Results

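Ddit3, Hspa5 and Cdkn1a are genes of the cell stress response. Their expression was followed in maternal and fetal rat liver after repeated oral dosing of the dam with PFO5DoA or PFO4DA, 2 perfluoroalkyl ether carboxylic acids. They were taken by identifier (ENSRNOG00000006789 for Ddit3, ENSRNOG00000018294 for Hspa5 and ENSRNOG00000000521 for Cdkn1a) and are 3 of the 20311 genes of each count table. PFO5DoA is the longer homologue, with 1 further difluoromethoxy unit in its chain. The study compared dose-dependent liver expression between the chemicals and between the life stages.

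Dams were time-mated Sprague-Dawley rats, 11 to 12 weeks old at purchase. They were dosed from gestational day 18 to 22, and livers were taken 2 to 4 hours after the final dose. The groups analysed were 2 dams at 0.1, 3 at 0.3, 3 at 1, 4 at 3, 4 at 10 and 4 at 30 mg/kg/d PFO5DoA with 5 control dams, and 4 dams at each of 0.3, 1, 3, 10, 30 and 62.5 mg/kg/d PFO4DA with 6 control dams. Controls received 0 mg/kg/d, and the vehicle was 0.5% Tween-80 in all groups. Each chemical had its own controls, and the labels name no genetic change in any group. The 0.1 mg/kg/d dams were not tested. Dams at 30 mg/kg/d PFO5DoA weighed about 17% less than their controls at the end, with apparent fetotoxicity in 1 dam. The 62.5 mg/kg/d PFO5DoA dams are not analysed here. The labels do not say how many fetuses a fetal liver library represents.

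Expression was measured with TempO-Seq, an assay that ligates pairs of probes on each RNA and counts the ligated products by sequencing. Of 111 libraries from 56 dams, 109 libraries from 55 dams were used, 55 of maternal and 54 of fetal liver, with totals between 7133025 and 15254954 counts. The column names give the dam but not the life stage, which was therefore inferred from expression. In each dam with 2 libraries, the one closer to the only library of dam 2286, labelled maternal, was taken as maternal liver and the other as fetal liver. Closeness was Pearson's r of log2(CPM + 1) over all genes, where CPM is the count scaled to a common library total. It was 0.943 to 0.988 for maternal and 0.8605 to 0.923 for fetal libraries, and 0 libraries changed their life stage when the 3 genes were left out. Dam 2279, a PFO5DoA control, was left out because its fetal library held 45504 counts. Its maternal library held 10318254 counts. No identifier in the tables matched a gene name in the reference used here, so markers of liver cell types, and other genes of the stress pathways, could not be read by name.

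Ddit3 encodes CHOP, a transcription factor at the end of the integrated stress response. It is induced when phosphorylation of the initiation factor eIF2 slows translation and favours ATF4, and it can drive cell death when stress persists. Hspa5 encodes BiP, also called GRP78, the main Hsp70 chaperone of the endoplasmic reticulum. BiP folds secreted proteins, binds the sensors of the unfolded protein response and is itself a target of that response through ATF6 and XBP1. Cdkn1a encodes p21, an inhibitor of cyclin-dependent kinases that p53 induces after DNA damage and that ATF4 signalling can also alter. The liver secretes large amounts of protein, and its endoplasmic reticulum is correspondingly extensive.

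The promoters of Ddit3 and Hspa5 are shown because these are the genes that passed the test, and because they share an element of the unfolded protein response in part. RefSeq (GRCr8) places the 250 bases before the Ddit3 start at chr7:65001445-65001694 and those before the Hspa5 start at chr3:38452766-38453015, both on the plus strand. The motif searched on both strands was the ER stress element, CCAAT and CCACG spaced by 9 bases of any kind. Capitals mark the outer 5 bases at each end of the best match.
Ddit3: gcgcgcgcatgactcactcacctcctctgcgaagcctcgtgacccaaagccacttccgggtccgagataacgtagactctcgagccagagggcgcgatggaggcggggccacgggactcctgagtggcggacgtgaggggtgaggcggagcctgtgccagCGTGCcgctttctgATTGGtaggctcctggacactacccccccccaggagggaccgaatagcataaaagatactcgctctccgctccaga
Hspa5: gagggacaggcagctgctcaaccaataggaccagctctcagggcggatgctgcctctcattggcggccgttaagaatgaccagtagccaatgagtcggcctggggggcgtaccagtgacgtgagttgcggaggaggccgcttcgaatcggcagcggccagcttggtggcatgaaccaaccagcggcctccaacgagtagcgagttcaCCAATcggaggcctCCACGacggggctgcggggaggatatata
The Hspa5 promoter held the exact element at positions -43 to -25 from the start, on the plus strand. The window of Ddit3 held no exact match, and 1 match with 1 changed base at positions -90 to -72 on the minus strand. The exact element occurred in 22 of 33469 promoters of this length (0.0657%), and a match with at most 1 changed base in 425 (1.27%); the allowance of 1 changed base was chosen after these sequences were seen. The window of Cdkn1a held neither. These are matches of letters and not measured binding sites.

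Levels below are CPM scaled with TMM, a factor that corrects for a few genes taking a large share of the counts, unless they are called unadjusted. Fold changes and adjusted p-values are from edgeR's quasi-likelihood test, adjusted with Benjamini-Hochberg over all genes tested, and a change was called at an adjusted p under 0.05. Dams are separate animals. In bulk liver, fewer cells of a type and less RNA per cell cannot be told apart.

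Ddit3 rose steeply in both livers at the top of the PFO5DoA dose range. At 30 mg/kg/d, Ddit3 was 9.57-fold higher in maternal liver and 38.5-fold higher in fetal liver than in controls. Hspa5 rose by much less at that dose, 1.67-fold in maternal and 1.37-fold in fetal liver, and was lower at 3 mg/kg/d in fetal liver. With each dam left out in turn, the maternal Hspa5 call at 30 mg/kg/d held in 4 of 9 fits, the fetal call at 30 mg/kg/d in 4 of 8 and the fetal call at 3 mg/kg/d in 2 of 9. Cdkn1a stood near the detection limit and 0 of its 16 tests at single doses of either chemical were called by edgeR or DESeq2. Among all genes edgeR called 4222 of 10615 in maternal and 3443 of 11509 in fetal liver at 30 mg/kg/d PFO5DoA. In fetal liver at 62.5 mg/kg/d PFO4DA it called 10.6%. For Cdkn1a 3 of the 16 had an unadjusted p under 0.05 in edgeR. All were falls in fetal liver under PFO4DA, at 0.3, 30 and 62.5 mg/kg/d.

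In maternal liver, Ddit3 reached 167, 181, 302 and 304 CPM in the 4 dams at 30 mg/kg/d PFO5DoA, against 23.3, 24.0, 24.3, 25.8 and 27.1 CPM in the 5 controls. All 4 dosed livers lay above every control. Their log2 fold change was 3.26 ± 0.25 (SE; adjusted p = 4.73e-10, edgeR). At this dose 2 of the 3 genes were called higher, and 19.5% of the 10615 genes tested were called higher (2067 genes higher and 2155 lower, but 2756 higher and 1325 lower with library totals in place of TMM). Ddit3 ranked 92 among those genes from the highest log2 fold change. In the run of dam identifiers that held these dams, with its own 2 controls, the log2 fold change was 3.22 (adjusted p = 1.13e-05, edgeR).

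At 10 mg/kg/d PFO5DoA the maternal livers held 30.1, 34.1, 48.4 and 71.2 CPM of Ddit3. All were above the 23.3 to 27.1 CPM of the controls used, which leave out dam 2279. The log2 fold change was 0.88 ± 0.24 (SE; adjusted p = 0.0152, edgeR), where 6.63% of genes were called higher (704 genes higher and 784 lower, but 1107 higher and 327 lower with library totals in place of TMM). Without dam 2276, the highest, it was 0.59 (adjusted p = 0.106, edgeR). It was 1.04 (adjusted p = 0.0636, edgeR) within the lower run of dam identifiers and 0.69 (adjusted p = 0.366, edgeR) within the higher run, with 2 dosed dams in each. With the maternal library of dam 2279 kept among the controls it was 0.69 (adjusted p = 0.0692, edgeR). That library held 38.9 unadjusted CPM of Ddit3, against 29.8, 39.8, 55.2 and 76.0 unadjusted CPM in the dosed livers, so it lay within their range. From 0.3 to 3 mg/kg/d the 10 maternal livers lay between 17.5 and 41.8 CPM, with a median of 26.2 CPM. They overlapped the controls, and the log2 fold changes of -0.02 to 0.21 did not pass the test. At 0.3, 1 and 3 mg/kg/d 0.0, 0.452 and 2.65% of all genes were called in maternal liver, in either direction, and 0 of the 3 genes.

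**Figure D1:**
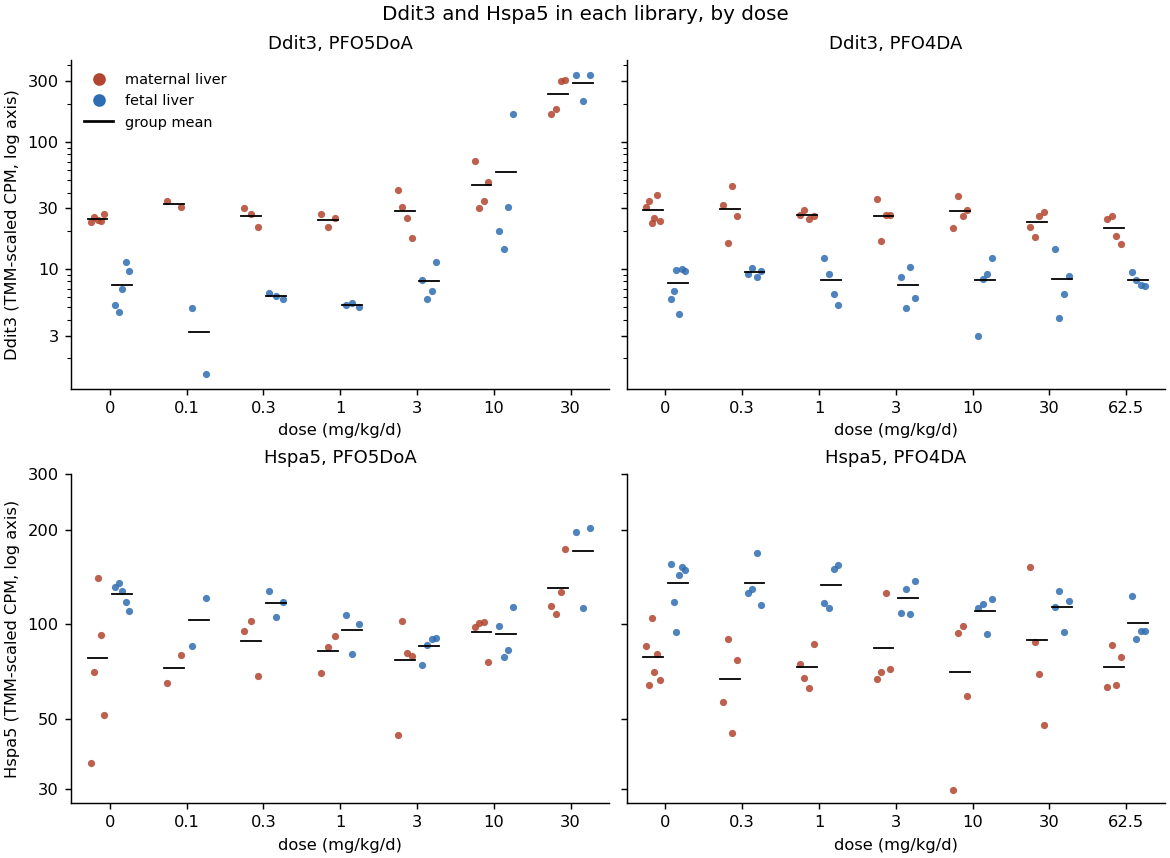
TMM-scaled CPM of Ddit3 (top) and Hspa5 (bottom) on log axes in every library, by dose in mg/kg/d, for PFO5DoA (left) and PFO4DA (right). Each point is 1 library, maternal in red and fetal in blue, and bars are group means; Ddit3 at 30 mg/kg/d PFO5DoA lies between 167 and 335 CPM, above every control, while under PFO4DA no dose leaves the range of 2.99 to 44.7 CPM.

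In unadjusted CPM, fetal liver started from a lower Ddit3 level than maternal liver and ended at a like one. Means were 7.63 in fetal and 24.2 in maternal PFO5DoA controls. At 30 mg/kg/d they were 352 and 306 in the 3 dams with both livers. The 3 fetal livers at 30 mg/kg/d PFO5DoA held 209, 333 and 335 CPM, against 4.60, 5.22, 6.96, 9.65 and 11.4 CPM in the 5 controls. The groups did not overlap. On the log2 scale the change was 5.27 ± 0.59 (SE; adjusted p = 2.15e-06, edgeR), and Ddit3 ranked 24 of 11509 genes from the highest. Called higher at this dose were 2 of the 3 genes and 13.8% of all genes tested (1590 genes higher and 1853 lower, but 2566 higher and 1001 lower with library totals in place of TMM). The higher run of dam identifiers held all dams of this dose and 2 controls. Within it the log2 fold change of Ddit3 was 4.82 (adjusted p = 0.00503, edgeR). Those 2 controls held 9.65 and 11.4 CPM, against 4.60, 5.22 and 6.96 CPM in the controls of the lower run.

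At 10 mg/kg/d PFO5DoA the fetal livers were uneven, with 14.5, 20.1, 31.0 and 166 CPM of Ddit3, against 4.60 to 11.4 CPM in the controls. All 4 exceeded every control, and the liver of dam 2284 stood far above the other 3. The log2 fold change was 2.93 ± 0.53 (SE; adjusted p = 0.00076, edgeR), and 7.0% of genes were called higher (806 genes higher and 884 lower, but 1199 higher and 496 lower with library totals in place of TMM). Without dam 2284 it was 1.54 (adjusted p = 0.000386, edgeR), so the call held at a smaller size. It was 1.63 (adjusted p = 0.000216, edgeR) within the lower run and 3.24 (adjusted p = 0.0522, edgeR) within the higher run, which held dam 2284. The maternal liver of dam 2284 held 48.4 CPM, inside the range of its group. From 0.3 to 3 mg/kg/d the 10 fetal livers lay between 5.00 and 11.3 CPM, within the range of the controls. In fetal liver 0 of the 3 genes were called at 0.3 and 1 mg/kg/d, against 0.113 and 2.4% of all genes.

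The slope of Ddit3 on log2(dose + 1) under PFO5DoA was 0.62 ± 0.06 log2 units in maternal liver (SE; adjusted p = 9.49e-08, edgeR), where 20.8% of genes had a called rising slope (2209 genes rising and 2271 falling, but 3359 rising and 1146 falling with library totals in place of TMM). In fetal liver it was 1.09 ± 0.11 (SE; adjusted p = 1.16e-07, edgeR), where the share was 17.4% (2003 genes rising and 2141 falling, but 3854 rising and 1015 falling with library totals in place of TMM). Without the 30 mg/kg/d dams the slope was 0.24 (adjusted p = 0.00497, edgeR) in maternal and 0.88 (adjusted p = 0.000387, edgeR) in fetal liver. Dose and run of dam identifiers are partly tied, with 0.3 and 1 mg/kg/d only in the lower run and 30 mg/kg/d only in the higher. No slope of any of the 3 genes was fitted within a run.

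Among all genes tested, the identifier whose pattern was most like that of Ddit3 in fetal liver was ENSRNOG00000000567, with a Pearson r of 0.937 over 54 libraries. In maternal liver ENSRNOG00000000567 had an r of 0.892 over 55 libraries, the third highest of 10950 genes. The likeness was computed on log2 levels relative to the controls of each table, and the libraries share doses and runs, so it is a description.

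Hspa5 moved over a much narrower range. In maternal liver it had 108, 114, 126 and 174 CPM at 30 mg/kg/d PFO5DoA, against 36.1, 51.6, 70.6, 92.5 and 141 CPM in the controls. A single dosed liver lay above every control, and the controls spread from 36.1 to 141 CPM. This depended on the scaling. In unadjusted CPM all 4 dosed livers, at 118 to 238 CPM, lay above the controls, at 40.0 to 111 CPM. The log2 fold change was 0.74 ± 0.28 (SE; adjusted p = 0.038, edgeR). The call was lost when any 1 of dams 2263, 2264, 2280, 2287 or 2288 was left out, with log2 fold changes of 0.56 to 0.75 and adjusted p-values of 0.0625 to 0.153 in edgeR. Within the higher run it was 0.86 (adjusted p = 0.0404, edgeR). The slope over dose was 0.13 ± 0.05 log2 units (SE; adjusted p = 0.0271, edgeR) and 0.05 without the highest dose (adjusted p = 0.704, edgeR). Leaving out dam 2280, 2287 or 2288 also ended the call of the slope, at 0.09 to 0.12 and adjusted p-values of 0.0507 to 0.131 in edgeR. At lower doses the maternal livers overlapped the controls, with log2 fold changes between -0.03 and 0.27 that did not pass the test.

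In fetal liver the group means of Hspa5 were below the control mean from 0.3 to 10 mg/kg/d PFO5DoA and above it at 30 mg/kg/d. All dams at 0.3 and 1 mg/kg/d were in the lower run of dam identifiers, and all at 30 mg/kg/d in the higher run. The shape of the dose series was not tested. Group means were 117, 95.9, 85.2, 93.4 and 171 CPM at 0.3, 1, 3, 10 and 30 mg/kg/d PFO5DoA, and 124 CPM in controls. At 3 mg/kg/d the 4 livers held 74.5, 86.1, 89.7 and 90.4 CPM, all below the 110.5, 118, 127, 131 and 135 CPM of the controls. Hspa5 fell there by a log2 fold change of -0.55 ± 0.16 (SE; adjusted p = 0.0352, edgeR), where 3.1% of genes were called lower. The call held in 2 of the 9 fits that each left out 1 of these dams, with log2 fold changes of -0.59 to -0.50 and adjusted p-values of 0.0346 to 0.120 in edgeR. It was -0.72 (adjusted p = 0.0153, edgeR) within the lower run and -0.33 (adjusted p = 0.646, edgeR) within the higher run. The call was also lost with library totals in place of TMM (-0.61, adjusted p = 0.0859, edgeR), with no filter on low counts (-0.54, adjusted p = 0.0642, edgeR) and with the 0.1 mg/kg/d dams kept (-0.53, adjusted p = 0.0527, edgeR). The 3 livers at 1 mg/kg/d and 3 of the 4 at 10 mg/kg/d were also below every control. Their log2 fold changes of -0.38 (adjusted p = 0.246, edgeR) and -0.41 (adjusted p = 0.0824, edgeR) did not pass the test.

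At 30 mg/kg/d PFO5DoA the fetal livers held 113, 196 and 203 CPM of Hspa5, against 110.5 to 135 CPM in controls. The livers of dams 2285 and 2288 lay above every control, and that of dam 2287 lay among them. Dam 2287 also had the lowest fetal Ddit3 of the 3. On average the log2 fold change was 0.46 ± 0.17 (SE; adjusted p = 0.0423, edgeR), and it was 0.33 (adjusted p = 0.243, edgeR) without dam 2288 and 0.37 (adjusted p = 0.167, edgeR) without dam 2285. Leaving out control dam 2278 or 2280 also ended the call, at adjusted p-values of 0.0658 and 0.0632 in edgeR. Within the higher run it was 0.61 (adjusted p = 0.15, edgeR). The fetal slope over all doses was 0.05 ± 0.04 log2 units (SE; adjusted p = 0.345, edgeR). Without the highest dose it was -0.12 (adjusted p = 0.0338, edgeR).

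**Figure D2:**
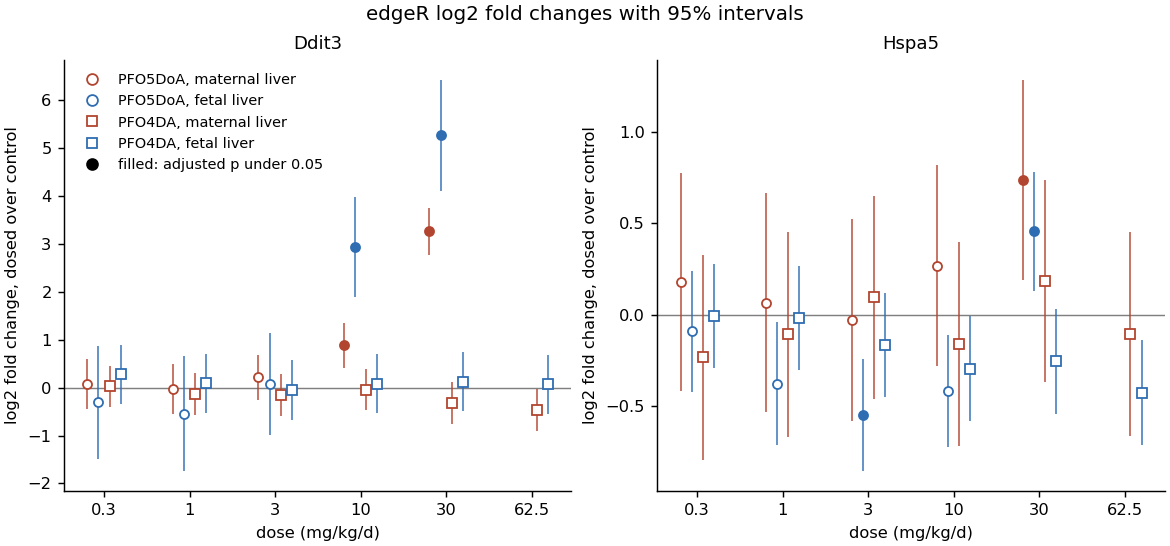
Log2 fold changes of Ddit3 (left) and Hspa5 (right), dosed over control, from edgeR by dose in mg/kg/d, with 95% intervals of 1.96 standard errors. Circles are PFO5DoA and squares PFO4DA, maternal in red and fetal in blue, and filled symbols have an adjusted p under 0.05; Ddit3 under PFO5DoA climbs to 3.26 in maternal and 5.27 in fetal liver, while Hspa5 stays between -0.55 and 0.74.

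Other measures moved with these values at 30 mg/kg/d PFO5DoA. The 10 most abundant genes took 13.4 to 24.1% of the counts in maternal and 14.7 to 23.1% in fetal liver, against 26.7 to 33.9% in maternal and 27.6 to 38.7% in fetal controls. The part of this shift in the results above was not tested. With library totals in place of TMM, the median log2 fold change of all genes was 0.23 higher in maternal and 0.27 higher in fetal liver at this dose. Ddit3 and Hspa5 kept their direction under both scalings at 30 mg/kg/d. The lower bodyweight of these dams and the dose cannot be told apart.

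Cdkn1a was close to the floor of the assay. Its estimated count was 0 to 27 per library, with a median of 4 in the 55 maternal and 9 in the 54 fetal libraries. It was at 0 in 3 libraries and at or under 3 counts in 27 of 109. A count of 3, the limit that a count of 0 allows, corresponds to 0.197 to 0.421 unadjusted CPM here, for counting error alone.

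At 30 mg/kg/d PFO5DoA the maternal counts of Cdkn1a were 0, 1, 3 and 5, against 1, 2, 5, 6 and 15 in the controls. The fetal counts were 5, 12 and 12, against 8, 9, 10, 11 and 19 in the controls. Both pairs of groups overlapped. The log2 fold changes were -1.45 ± 0.82 (SE; adjusted p = 0.162, edgeR) in maternal and -0.45 ± 0.41 (SE; adjusted p = 0.444, edgeR) in fetal liver. At 62.5 mg/kg/d PFO4DA the fetal counts were 3, 4, 8 and 10, against 8, 8, 13, 19, 21 and 21 in the controls. The log2 fold change was -1.34 ± 0.51 (SE; adjusted p = 0.0932, edgeR). It was -1.71 (adjusted p = 0.482, edgeR) at 0.3 mg/kg/d, where the fetal counts were 1, 3, 4 and 9. At 30 mg/kg/d it was -1.39 (adjusted p = 0.117, edgeR), with fetal counts of 2 to 9. The fetal log2 fold changes at 1, 3 and 10 mg/kg/d were -0.62, -0.90 and -0.40, and none passed. In maternal liver under PFO4DA, Cdkn1a did not pass the filter on low counts. Without that filter its log2 fold change at 62.5 mg/kg/d was 0.27 ± 0.66 (SE; adjusted p = 1 in edgeR).

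**Figure D3:**
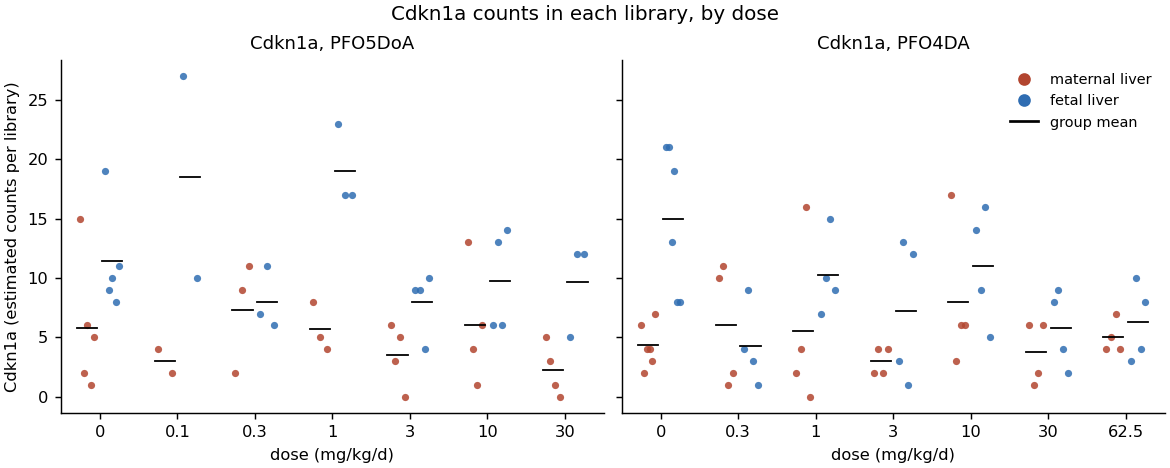
Estimated counts of Cdkn1a per library by dose in mg/kg/d, for PFO5DoA (left) and PFO4DA (right). Each point is 1 library, maternal in red and fetal in blue, and bars are group means; all libraries lie between 0 and 27 counts and each dose group overlaps its controls.

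Under PFO4DA no change of Ddit3 was called. At the 6 doses and in both livers, 0 of 30 tests of the 3 genes were called by edgeR, 5 had an unadjusted p under 0.05 and 1 was called by DESeq2, which was Hspa5 in fetal liver at 62.5 mg/kg/d (-0.42, adjusted p = 0.043). From 0.3 to 62.5 mg/kg/d the share of all genes called was 0.0, 0.0, 0.0, 0.00974, 0.633 and 2.46% in maternal liver and 0.0, 0.0, 0.304, 2.64, 6.44 and 10.6% in fetal liver. At 62.5 mg/kg/d 662 of the 1188 calls in fetal liver were lower, but 396 of 1399 with library totals in place of TMM, and 67 of 252 in maternal liver, but 31 of 228 with library totals.

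In maternal liver Ddit3 had 15.9, 18.3, 24.6 and 26.2 CPM at 62.5 mg/kg/d PFO4DA, against 23.2, 23.9, 25.4, 30.6, 34.4 and 38.1 CPM in the controls. The lower pair lay below every control. For the whole group the log2 fold change was -0.46 ± 0.23 (SE; adjusted p = 0.345, edgeR), and the slope of -0.07 ± 0.03 did not pass either (SE; adjusted p = 0.286, edgeR), where 2.8% of genes had a called slope. In fetal liver Ddit3 had 7.43, 7.57, 8.16 and 9.46 CPM, against 4.44 to 10.1 CPM in controls, with a log2 fold change of 0.07 ± 0.31 (SE; adjusted p = 0.936, edgeR). Over the 24 dosed fetal livers it ranged from 2.99 to 14.4 CPM with a median of 8.70 CPM. The fetal slope was -0.00 ± 0.04 log2 units (SE; adjusted p = 0.995, edgeR), and its sign differed between scalings.

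Hspa5 under PFO4DA showed no called change in maternal liver, where 24 dosed livers spanned 29.8 to 152 CPM and the 6 controls 64.2 to 105 CPM. In fetal liver the level declined with dose. Group means were 135, 134, 121, 110.5, 113 and 101 CPM at 0.3, 1, 3, 10, 30 and 62.5 mg/kg/d, and 135 CPM in controls. The slope was -0.07 ± 0.02 log2 units per unit of log2(dose + 1) (SE; adjusted p = 0.00536, edgeR), where 10.8% of genes had a called falling slope (1203 genes falling and 914 rising, but 696 falling and 1949 rising with library totals in place of TMM). The slope was -0.06 (adjusted p = 0.165, edgeR) without the highest dose and -0.04 (adjusted p = 0.126, edgeR) with library totals in place of TMM. At 62.5 mg/kg/d the fetal livers held 89.7, 95.2, 95.3 and 123 CPM, against 94.4, 117, 143, 149, 152 and 155 CPM in controls. The groups overlapped, and the log2 fold change was -0.42 ± 0.15 (SE; adjusted p = 0.0593, edgeR). In the higher run of dam identifiers, which held all 4 of these dams, it was -0.58 (adjusted p = 0.0296, edgeR).

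The chemicals were compared at the 5 doses they share, as the difference of their log2 fold changes in a joint fit. Ddit3 differed at 30 mg/kg/d in both livers. In maternal liver it had 167 to 304 CPM under PFO5DoA, against 17.9, 21.5, 26.0 and 27.9 CPM under PFO4DA, and the difference was 3.59 ± 0.35 log2 units (SE; adjusted p = 3.03e-10, edgeR). There 9.49% of 10951 genes had a called higher difference (1039 genes higher and 1149 lower, but 1702 higher and 611 lower with library totals in place of TMM). In fetal liver it had 209 to 335 CPM under PFO5DoA, against 4.11, 6.36, 8.84 and 14.4 CPM under PFO4DA, and the difference was 5.14 ± 0.64 log2 units (SE; adjusted p = 2.45e-07, edgeR). There the share was 5.44% of 11732 genes (638 genes higher and 954 lower, but 1119 higher and 542 lower with library totals in place of TMM).

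At 10 mg/kg/d the fetal difference of Ddit3 was 2.85 ± 0.61 log2 units (SE; adjusted p = 0.00321, edgeR), where 1.47% of genes were called higher (172 genes higher and 305 lower, but 201 higher and 209 lower with library totals in place of TMM). Without dam 2284 it was 1.45 (adjusted p = 0.0489, edgeR). The maternal difference was 0.94, with a 95% interval of 0.27 to 1.61, and missed the threshold (adjusted p = 0.0739, edgeR). At 0.3, 1 and 3 mg/kg/d the Ddit3 differences were between -0.63 and 0.38 in both livers, and none passed. The 95% intervals of these Ddit3 differences lay between -0.65 and 1.05 in maternal and between -1.91 and 1.35 in fetal liver. At 0.3, 1, 3 and 10 mg/kg/d 0 of the 3 genes and 0.0, 0.128, 0.804 and 8.55% of all genes had a called difference in maternal liver. At 10 mg/kg/d 432 of these were higher and 504 lower, but 929 higher and 238 lower with library totals in place of TMM. In fetal liver it was 0 of the 3 genes and 0.00852, 0.707 and 1.56% of all genes at 0.3, 1 and 3 mg/kg/d.

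Hspa5 differed between the chemicals in fetal liver at 30 mg/kg/d. It had 113, 196 and 203 CPM under PFO5DoA, against 94.6, 114, 118 and 127 CPM under PFO4DA, and the 2 ranges overlapped. The difference of the fold changes was 0.71 ± 0.22 log2 units (SE; adjusted p = 0.0263, edgeR). Leaving out dam 2285, dam 2288 or dam 2317 ended the call, with differences of 0.56 to 0.66 and adjusted p-values of 0.0522 to 0.155 in edgeR. In maternal liver the difference was 0.56, with a 95% interval of -0.25 to 1.38 (adjusted p = 0.366, edgeR). For Cdkn1a no difference between the chemicals passed at any shared dose, and the 95% interval in maternal liver was -2.29 to 2.10 at 3 mg/kg/d and -3.38 to 0.92 at 30 mg/kg/d.

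In controls all 3 genes had different mean levels in the life stages, described without a test, since the life stages were assigned from expression, in unadjusted CPM over the 11 control dams of both tables. Ddit3 averaged 26.9 ± 5.51 CPM in maternal and 7.65 ± 2.88 CPM in fetal liver (SD, n = 11 dams), and was higher in maternal liver in 11 of 11 dams. Hspa5 averaged 75.8 ± 21.8 CPM in maternal and 129 ± 23.5 CPM in fetal liver (SD, n = 11), and was higher in fetal liver in 10 of 11 dams. Cdkn1a averaged 0.514 ± 0.386 CPM in maternal and 1.28 ± 0.482 CPM in fetal liver (SD, n = 11), and was higher in fetal liver in 10 of 11 dams. Fetal liver is also a site of blood formation, and the makeup of the libraries was not measured.

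Over all dams outside the 10 and 30 mg/kg/d PFO5DoA groups, the 11 control dams included, Ddit3 was higher in maternal liver in 47 of 47 dams. It was higher in 3 of 4 dams at 10 mg/kg/d and in 1 of 3 dams at 30 mg/kg/d PFO5DoA. Hspa5 was higher in maternal liver in 6 of the same 47 dams. In unadjusted CPM the Ddit3 means at 30 mg/kg/d PFO5DoA were 306 ± 124 in maternal and 352 ± 98.8 in fetal liver of the same dams (SD, n = 3 dams), and the ranges overlapped.

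**Figure D4:**
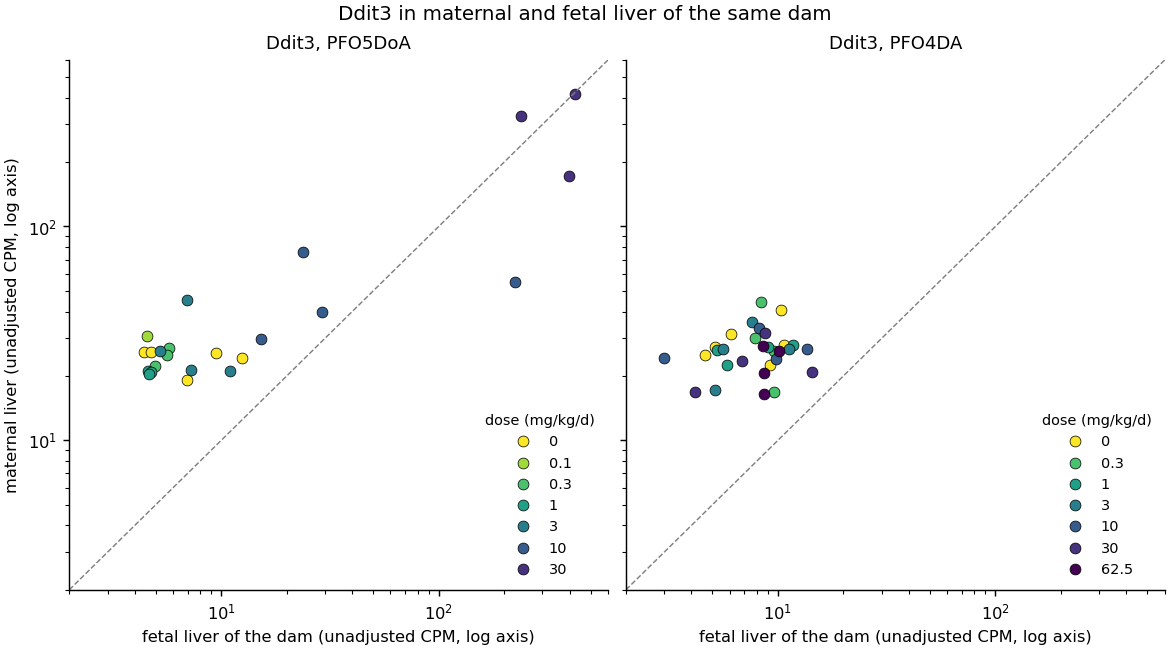
Ddit3 in maternal liver (vertical) against fetal liver (horizontal) of the same dam, in unadjusted CPM on log axes, for PFO5DoA (left) and PFO4DA (right), with the dose in mg/kg/d as colour and equality as the dashed line. Each point is 1 dam, and points lie above the line except 1 dam at 10 and 2 dams at 30 mg/kg/d PFO5DoA. Dam 2267 at 0.1 mg/kg/d PFO5DoA, with 27.8 CPM in maternal and 1.17 CPM in fetal liver, falls outside the axes and is not shown.

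With the controls of both runs pooled, the effect of 30 mg/kg/d PFO5DoA on Ddit3 was larger in fetal than in maternal liver. All dams of this dose were in the higher run of dam identifiers. Fetal control Ddit3 was 9.65 and 11.4 CPM in that run, against 4.60, 5.22 and 6.96 CPM in the lower run. Within the higher run the log2 fold changes were 3.22 in maternal and 4.82 in fetal liver. The difference between the life stages was not tested within a run. The maternal minus fetal difference of the log2 fold changes, fitted with the dam as a block over dams with both livers, was -1.96 ± 0.57 (SE; adjusted p = 0.0249, edgeR). At this dose 1 of the 3 genes and 7.03% of 11968 genes were called lower in this difference. Leaving out any 1 of dams 2263, 2264, 2285 or 2288 ended the call, with differences of -2.01 to -1.56 and adjusted p-values of 0.0516 to 0.107 in edgeR. At 10 mg/kg/d the difference was -1.44 ± 0.55 (SE; adjusted p = 0.145, edgeR). From 0.3 to 10 mg/kg/d 0 of the 3 genes and 0.0, 0.117, 1.19 and 4.77% of all genes were called. For Hspa5 it was 0.84 ± 0.32 at 10 mg/kg/d (SE; adjusted p = 0.134, edgeR) and 0.56 ± 0.35 at 30 mg/kg/d (SE; adjusted p = 0.299, edgeR). Under PFO4DA 0 of the 3 genes and 0.0, 0.0, 0.00861, 0.5, 1.02 and 2.81% of all genes had a called difference between the life stages from 0.3 to 62.5 mg/kg/d. The difference of Ddit3 at the highest of these doses was -0.57, with a 95% interval of -1.22 to 0.09.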

How the data were processed

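Livers were profiled with TempO-Seq. The authors deposited 1 table of estimated counts per gene for each chemical, with no normalisation in the values; 12.2% of the PFO5DoA and 11.8% of the PFO4DA values had decimals and were rounded. Per the submitters' processing notes, Partek, STAR 2.7.8a, DESeq2 and the build mRatBN7.2 were used. Life stage was assigned per dam as described above, and dam 2279 was left out.

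Each chemical and life stage was fitted with all its doses of at least 3 dams in edgeR 4.0.16 (R 4.3.3): TMM, filterByExpr by dose, robust dispersions and the quasi-likelihood test, with Benjamini-Hochberg over all genes and a threshold of 0.05. Slopes used log2(dose + 1). The chemicals were compared in a joint fit, and the life stages with the dam as a block. Intervals are 1.96 standard errors. The scripts were tested on simulated data. Alternatives used DESeq2 1.42.0, limma 3.58.1, other scaling, no filter, other dose coding and each dam left out.

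The genes and lists were chosen with earlier results of these data known. The genes named are the 3 genes, those of 18 stress and marker lists, and those most like the 3 genes in pattern; the lists gave no values, since 0 of 20311 identifiers matched the reference table. Totals of 7133025 to 15254954 counts set the precision, and floors cover counting error only. Lower and higher run mean the consecutive stretches of dam identifiers; the labels do not call them batches.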

Additional observations from a re-analysis of the deposited data

Results flagged for a closer look

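Each gene was looked at in each dose group of at least 4 libraries of 1 life stage, which gave 63 sets of values. Of these, 5 held a library far from the others by Dixon's criterion, where chance gives about 1 in 20. The same libraries recur for each gene, and some of the 5 can arise by chance. Ddit3 stood out at 166 CPM in the fetal liver of dam 2284 at 10 mg/kg/d PFO5DoA. In the maternal liver of the same dam, Hspa5 was the lowest of its group at 76.0 CPM. Hspa5 was the highest of its group at 126 CPM in the maternal liver of dam 2302 at 3 mg/kg/d PFO4DA, and at 123 CPM in the fetal liver of dam 2319 at 62.5 mg/kg/d PFO4DA. Cdkn1a was highest at 1.91 CPM in the fetal liver of control dam 2263 of the PFO5DoA table.

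The effect of dose differed between groups in 5 results of the 3 genes, among all doses compared between the chemicals or between the life stages. For Ddit3, PFO5DoA minus PFO4DA was 3.59 log2 units in maternal liver at 30 mg/kg/d, 2.85 in fetal liver at 10 mg/kg/d and 5.14 in fetal liver at 30 mg/kg/d. Of all genes, 9.49, 1.47 and 5.44% were called higher in these comparisons. For Hspa5 the difference between the chemicals was 0.71 in fetal liver at 30 mg/kg/d, and the call held in 15 of 18 fits with a dam left out. The maternal minus fetal difference of Ddit3 at 30 mg/kg/d PFO5DoA was -1.96, where 7.03% of all genes were called lower. Its call held in 4 of 8 fits with a dam left out.

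Libraries outside the tests, a control library among them, also held Ddit3 above the controls used. At 0.1 mg/kg/d PFO5DoA, left out of the tests for its 2 dams, maternal Ddit3 averaged 32.4 CPM and both livers, at 30.6 and 34.2 CPM, lay above the 23.3 to 27.1 CPM of the controls. The 2 sides were scaled in different sets. In unadjusted CPM these livers held 27.8 and 30.6, against 19.2 to 26.0 in the controls used. The fetal livers of the same dams held 1.51 and 4.96 CPM, so the lower was below every control. The maternal library of control dam 2279, left out of the main tests, held 38.9 unadjusted CPM of Ddit3, above all other controls of its table. It also lay above both maternal livers at 0.1 mg/kg/d, which held 27.8 and 30.6 unadjusted CPM.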

How the results depend on the processing

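Of 220 results of the 3 genes under another setting, 188 kept their direction and their side of the threshold. These include results that were not called under either setting. At 30 mg/kg/d PFO5DoA the call of Ddit3 held in 11 of 11 settings in maternal and 9 of 9 in fetal liver. That of Hspa5 held in 7 of 11 and 4 of 10. The call of Hspa5 at 30 mg/kg/d PFO5DoA was lost in maternal liver with no filter (0.74), with the dose and its own controls only (0.77), with the dam run as a covariate (0.79) and with the replicate block (0.65), and its slope with the rank of the dose (0.11) and without the highest dose (0.046). In fetal liver it was lost with limma (0.41), no filter (0.47), own controls only (0.48), the dam run (0.44), the replicate block (0.42) and the higher run only (0.61). The fetal slope of Hspa5 was called with library totals (0.13) and reversed without the highest dose (-0.12). Under PFO4DA, Hspa5 at 62.5 mg/kg/d reversed in maternal liver with the dam run (0.067) and in the higher run (0.0047). In fetal liver it was called with DESeq2 (-0.42), the dam run (-0.51) and the higher run (-0.58), and its slope was lost with library totals (-0.041) and without the highest dose (-0.057). The fetal slope of Ddit3 reversed with library totals (0.027) and without the highest dose (0.0076). Cdkn1a at 62.5 mg/kg/d in fetal liver was called with the replicate block (-1.66). The causes were not tested.

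With each dam left out in turn, Hspa5 at 30 mg/kg/d PFO5DoA was 0.56 to 1.06 in maternal and 0.33 to 0.68 in fetal liver, and its maternal slope 0.092 to 0.16. Its difference between the chemicals in fetal liver was 0.56 to 0.93. The life stage difference of Ddit3 was -2.33 to -1.56. Under PFO4DA, Hspa5 was -0.53 to -0.36 in fetal liver at 62.5 mg/kg/d, called without dam 2295 or 2319, and its maternal slope was -0.014 to 0.025. Ddit3 at 62.5 mg/kg/d in fetal liver was -0.030 to 0.17, and its slope -0.019 to 0.017.

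The replicate numbers of the titles did not pair the dams: the mean correlation of same-numbered libraries was 0.02, 0.03, -0.02 and 0.00 in the 4 sets, and not every pair exceeded 0.1. DESeq2 gave no adjusted p for fetal Ddit3 at 10 and 30 mg/kg/d PFO5DoA, so these results are not among the 220 above.

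Counts of called genes moved by over 1.5 times in 42 results under another setting and in 38 with a dam left out, among them the following. In maternal liver at 3 mg/kg/d PFO5DoA 281 became 479 with DESeq2, 136 with own controls, 87 and 78 in the lower and higher run and 176 without dam 2281. At 10 mg/kg/d 1488 became 793, 371 and 193 with own controls and in the runs, and 944 and 902 without dams 2283 and 2284; at 30 mg/kg/d 4222 became 2114 in the higher run. In fetal liver 815 became 486, 104 and, without dam 2274, 538 at 3 mg/kg/d, 1690 became 808 and 330 at 10 mg/kg/d, and 3443 became 1709 and, without dam 2288, 2225 at 30 mg/kg/d. Under PFO4DA at 62.5 mg/kg/d 252 in maternal liver became 484 with own controls, and 167 and 162 without dams 2293 and 2319. Without the highest dose 1838 slopes were called in maternal and 2012 in fetal liver under PFO5DoA (4480 and 4144 with it), and 89 and 1016 under PFO4DA (287 and 2117 with it). Between the chemicals at 10 mg/kg/d 936 became 445 to 608 in maternal liver without dam 2263, 2283, 2284 or 2303, 477 became 309 with no filter and 288 without dam 2303 in fetal liver, and 1592 became 921 without dam 2288 at 30 mg/kg/d. Between the life stages 142 became 280 with DESeq2 and 75 and 344 without dams 2263 and 2264 at 3 mg/kg/d, 571 became 361 with library totals and 331 without dam 2263 at 10 mg/kg/d, and 1802 became 1057 and 909 without dams 2287 and 2288 at 30 mg/kg/d. Under PFO4DA 58 became 136 with library totals at 10 mg/kg/d.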
